A study of Mus musculus with 3 samples.

Results

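The 82 histone genes described here are the protein-coding genes whose symbol begins with Hist1h, Hist2h, Hist3h, Hist4h, H2af, H3f3 or H1f, out of 55536 genes in the gene tables, of which 22028 are protein-coding. The 67 Hist genes are called replication-dependent here, and the 15 H2af, H3f3 and H1f genes are called variants. The 3 libraries are ribosomal-RNA-depleted total RNA from the cytosolic fraction of primary macrophages of C57BL/6J mice, grown from bone marrow. All 3 belong to 1 group: the cells were treated with 100 ng/ml Lipid A, the part of bacterial lipopolysaccharide that TLR4 recognises, for 12 h, kept without it for 12 h, and collected at 0 min of a further 100 ng/ml Lipid A stimulation. There is thus no untreated group and no contrast between conditions. The labels call the libraries biological replicates 1, 2 and 3 but give them the same donor identifier, and sex and age were not recorded.

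Nucleosomes are built from the core histones H2A, H2B, H3 and H4, with the linker histone H1 on the DNA between them. The replication-dependent genes lie in clusters and supply histones while DNA is copied. Their mRNAs classically end just past a conserved stem-loop instead of in a poly(A) tail, the loop is bound by SLBP, and they decay when replication stops. Most variant genes stand alone, give polyadenylated mRNAs, and are used through the cell cycle and in non-dividing cells.

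Counts assigned to genes were 28981178, 53119941 and 46783133 in replicates 1, 2 and 3, and a count of 0 allows up to 0.104, 0.0565 and 0.0641 CPM (counts per 1e6 counts), for counting error only. All 10 macrophage markers were at 1 TPM (transcripts per 1e6 transcripts, a level per length) or more, whereas no B cell, T and NK cell, erythroid or mast cell and progenitor marker was, and 2 of 9 neutrophil and granulocyte precursor markers were. The summed level of 5 RNAs that stay in the nucleus was 175, 102 and 1439 TPM in replicates 1, 2 and 3, so replicate 3 stood apart in its content of nuclear RNA, and the part of this in any result below was not tested. Depletion of ribosomal RNA, not poly(A) selection, was used, so mRNAs without a poly(A) tail could be measured.

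The stem-loop is shown first because matches lay mostly in 1 of the 2 classes of gene. A search of annotated transcripts, on the transcript strand, for the histone 3′ stem-loop, with stem arms of 6 bases around a loop of 4, found it in 46 of 67 replication-dependent genes (68.7%) and in 1 of 15 variants, against 56 of 58696 protein-coding transcripts of other genes (0.0954%). Each member was represented by its leading protein-coding transcript, and other genes by all of theirs. In 15 replication-dependent genes the annotated transcript stops at the end of the coding part, so sequence past that point was not searched. Capitals mark the 16 bases of the stem-loop in the transcripts below, written 5′ to 3′ as DNA from the GENCODE M21 annotation.
Hist2h2aa2: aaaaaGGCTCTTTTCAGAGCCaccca
Hist1h2bb: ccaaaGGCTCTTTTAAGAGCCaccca
Hist1h4m: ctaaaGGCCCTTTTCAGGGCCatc
Hist1h4b: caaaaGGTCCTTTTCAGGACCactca
H2afx: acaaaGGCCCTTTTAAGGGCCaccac
The form in Hist2h2aa2 was the most common, shared by 26 genes of the H1, H2A, H2B and H3 families. The form in Hist1h4m was found in 7 genes, all H4, and the form in Hist1h4b in 2 H4 genes. H2afx, which encodes the H2A.X protein phosphorylated at DNA breaks, was the 1 variant with a match, and its annotated transcript runs 822 bases past the loop.

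Histone mRNAs were widely detected, and the highest were the variants of H3. In every library 58 of 82 genes (70.7%) reached 1 TPM, against 41.2% of all protein-coding genes. The count was 50 of 67 replication-dependent genes (74.6%) and 8 of 15 variants (53.3%). By family, 4 of 6 replication-dependent H1 genes, 13 of 18 H2A, 13 of 18 H2B, 8 of 12 H3 and 12 of 13 H4 genes reached it. In every library 20 of 82 members were at 10 TPM or more, against 3767 of 22028 protein-coding genes. The median was 3.55 TPM against 0.16 TPM over all protein-coding genes. The members' TPM summed to 1151, 1091 and 1188 in replicates 1, 2 and 3, which was 0.383% ± 0.0156 (SD, n = 3) of the protein-coding total. With TPM made directly from the reads, 40 genes reached the threshold, 32 of them replication-dependent and 8 variant. The share of all protein-coding genes by that TPM was not computed.

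**Figure D1:**
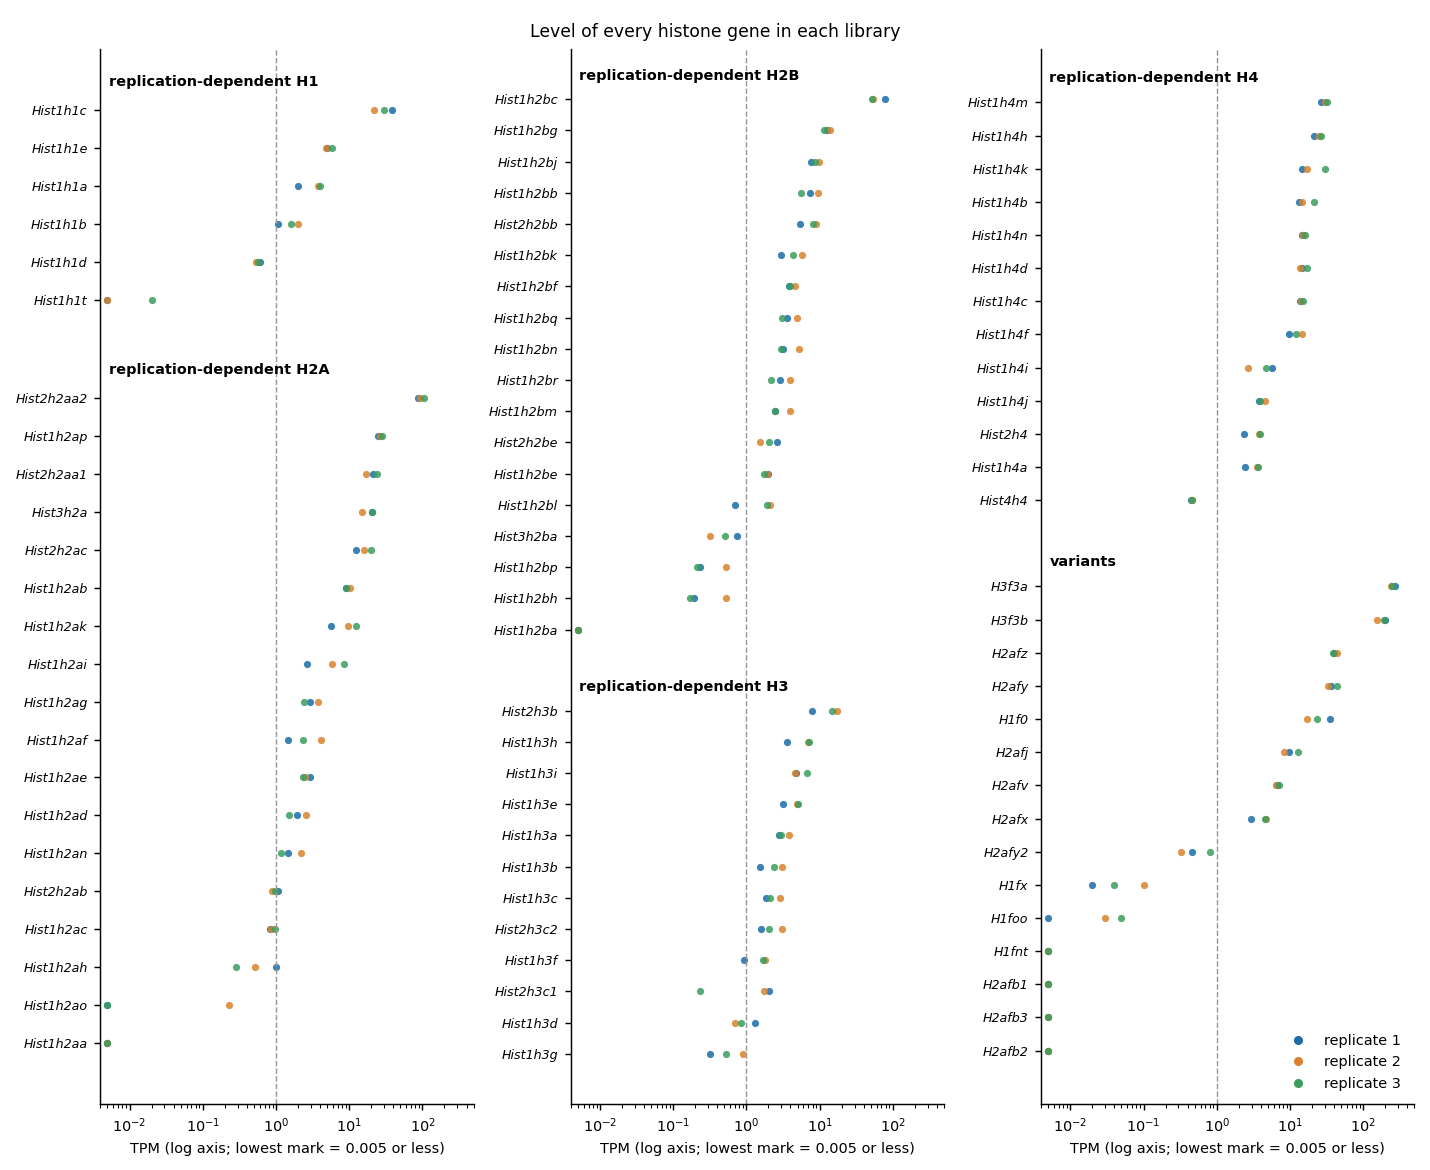
TPM of all 82 histone genes (log axis), 1 row per gene, with 1 point per library and the 1 TPM threshold as a dashed line. H3f3a and H3f3b lie furthest to the right, all 13 H4 genes except Hist4h4 lie above 1 TPM, and the genes at the left edge have values of 0.005 TPM or less.

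Among the variants, H3f3a and H3f3b, which both encode H3.3, the H3 that is placed in chromatin outside replication, had the highest levels of all 82 genes. H3f3a (ENSMUSG00000060743.12, chromosome 1, 180800832 to 180813943) measured 269, 237 and 244 TPM in replicates 1, 2 and 3, a mean of 249.9 ± 16.9 (SD, n = 3), which ranks 132 among protein-coding genes. H3f3b was at 195, 157 and 190 TPM, below H3f3a in every library.

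H2afz, which encodes H2A.Z, was at 39.3, 43.7 and 38.8 TPM. H2afv, the other H2A.Z gene, was at 6.63, 6.46 and 7.13 TPM, so the ranges of the H2A.Z genes did not overlap. H2afy, which encodes macroH2A1, a variant with a large extra domain, measured 35.8, 33.5 and 44.3 TPM, and its range overlapped that of H2afz. That overlap is of gene totals. H2afy-204, not annotated as protein-coding, gave 10.8, 11.79 and 15.15 TPM of H2afy. The protein-coding H2afy-201 and H2afy-202 were at 20.05, 16.46 and 18.01 TPM and at 4.91, 5.06 and 7.25 TPM. The leading protein-coding transcript of H2afz was at 38.45, 42.87 and 37.25 TPM. The macroH2A2 gene H2afy2 had a mean of 0.53 TPM.

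H2afj was at 9.60, 8.31 and 12.7 TPM and H2afx at 2.94, 4.74 and 4.51 TPM. H1f0, which encodes H1.0, a linker histone known to build up in differentiated cells, measured 35.5, 17.3 and 23.04 TPM and so was highest in replicate 1. The other H1f genes were near 0, with H1fx at a mean of 0.0533 TPM and H1foo, the oocyte linker histone, at 0.0267 TPM.

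Genes known mainly from testis had no counts. The 6 members with 0 counts in all 3 libraries were H1fnt, H2afb1, H2afb2, H2afb3, Hist1h2aa and Hist1h2ba. Hist1h1t, the testis linker histone, had 1 count in replicate 3 and none in the others.

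The variants' share differed by family. Variants made up 90.8% ± 2.62 of the H3 family's summed TPM, 31.8% ± 0.60 of the H2A family's and, for H1f genes, 37.8% ± 4.66 of the H1 family's (SD, n = 3), while the H2B and H4 families hold none by the naming rule. In each library the H3 share was the highest of the 3. Replication-dependent genes together gave 48.3, 53.5 and 52.4% of the members' TPM in replicates 1, 2 and 3. By family, H3 held 41.4% ± 1.47 of the members' TPM, H2A 27.5% ± 1.94, H4 14.2% ± 1.65, H2B 11.1% ± 1.54 and H1 5.74% ± 1.30. These shares depend on the correction for length, since TPM divides by an effective length that for Hist1h4k, a gene of 312 bases, was 77.2, 99.5 and 94.6 bases in replicates 1, 2 and 3. As shares of expected counts, replication-dependent genes held 31.4% in place of 51.4%, and variants held 54.0% of the H2A family in place of 31.8%.

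**Figure D2:**
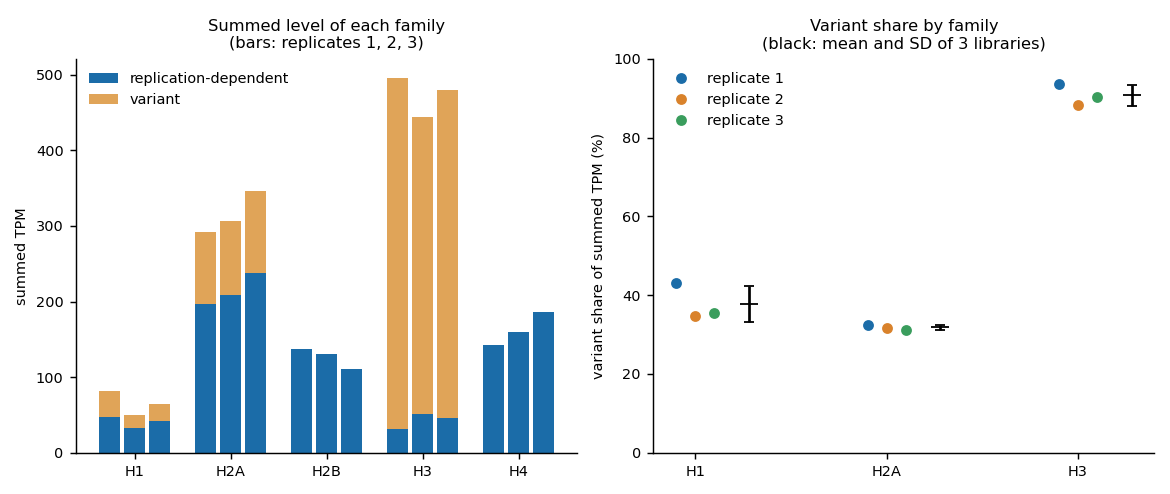
Left, summed TPM of each histone family in replicates 1, 2 and 3, split into replication-dependent and variant genes. Right, variant share of the summed TPM of the H1, H2A and H3 families in percent, with a point per library and the mean and SD in black; the H3 share lies between 88.4 and 93.6%, and those of H1 and H2A all lie under 44%.

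The replication-dependent H2A genes were led by Hist2h2aa2, at 87.4, 91.8 and 104 TPM in replicates 1, 2 and 3, which was 30.0% ± 0.0674 of the H2A family's TPM (SD, n = 3). Hist2h2aa1 has the same coding sequence and measured 20.8, 17.1 and 24.1 TPM. How reads divide between these copies rests on their untranslated ends. Hist1h2ap was at 24.8, 26.2 and 27.6 TPM, and Hist3h2a, from the small Hist3 cluster on chromosome 11, at 20.7, 14.9 and 20.6 TPM. Hist2h2aa2, Hist1h2ap and Hist2h2aa1 held 65.9% ± 1.45 of the 18 replication-dependent H2A genes' TPM.

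Of the H2B genes, Hist1h2bc stood above the others. It measured 78.9, 53.3 and 51.3 TPM, 57.5, 40.8 and 46.5% of the H2B family's TPM in replicates 1, 2 and 3. Its annotated transcript is 1156 bases long and holds no stem-loop match, and 742 of those bases follow the coding part. The next H2B genes were Hist1h2bg at 12.7, 13.8 and 11.4 TPM, Hist1h2bj at 7.61, 9.84 and 8.60 TPM and Hist1h2bb at 7.36, 9.64 and 5.51 TPM, so in every library the level of Hist1h2bc was more than 3 times that of the next H2B gene.

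The H4 family was the most even. Of 13 genes 12 reached 1 TPM in every library and 7 reached 10 TPM, and the first 3 held 45.5% ± 1.78 of the family's TPM, the lowest such share of the 5 families. Hist1h4m measured 26.9, 30.0 and 31.6 TPM, Hist1h4h 21.3, 25.1 and 26.7 TPM, Hist1h4b 13.2, 14.7 and 21.3 TPM, and Hist1h4k 14.6, 16.9 and 30.0 TPM. Hist1h4m lay above Hist1h4h and Hist1h4b in every library without overlap, while the range of Hist1h4k overlapped those of the other 3. All 13 genes encode the same protein from 12 coding sequences. Hist4h4, alone on chromosome 6, was the lowest at 0.44, 0.46 and 0.46 TPM.

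Replication-dependent H3 genes were low beside H3f3a and H3f3b. None of the 12 reached 10 TPM in every library. Hist2h3b was the highest at 7.96, 17.2 and 14.8 TPM, followed by Hist1h3h at 3.56, 6.84 and 7.06 TPM, Hist1h3i at 4.74, 4.65 and 6.63 TPM and Hist1h3e at 3.17, 4.97 and 5.14 TPM. By their leading transcripts the 12 genes encode 3 proteins, of which 2 are shared, by 7 and by 4 genes. The third is that of Hist2h3c1 alone, whose leading transcript has a coding part of 543 bases against 408 in the others. Their summed level was 31.8, 51.6 and 46.3 TPM in replicates 1, 2 and 3, against 464, 393 and 434 TPM for the H3.3 genes.

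The linker histones were led by Hist1h1c, which encodes H1.2 and measured 38.1, 21.7 and 29.9 TPM, or 45.2% ± 1.63 of the H1 family. Hist1h1e was at 4.94, 4.77 and 5.91 TPM, Hist1h1a at 2.02, 3.73 and 4.0 TPM and Hist1h1b at 1.05, 1.97 and 1.61 TPM. Hist1h1c, like H1f0, was highest in replicate 1 and lowest in replicate 2, whereas Hist1h1a and Hist1h1b were lowest in replicate 1.

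Many members cannot be fully told apart by short reads. Pairs with identical coding sequences were Hist1h2ao and Hist1h2ap, Hist1h2bq and Hist1h2br, Hist1h4m and Hist1h4n, and Hist2h2aa1 and Hist2h2aa2. The 18 replication-dependent H2A genes encode 9 proteins, 1 of them shared by 9 genes, and the 18 H2B genes encode 11. The deposited tables give a coefficient of quartile variation for each level, a relative spread of the authors' estimate. It exceeded 0.2 in at least 1 library for 9 of the 70 genes with enough counts to test, and 0.4 for Hist1h2bq and Hist1h2br. Values for these genes are uncertain as single genes, while family sums of counts do not rest on that division within a family. Family sums of TPM can, where copies differ in effective length. That of Hist1h2bq was 332, 341 and 455 bases in replicates 1, 2 and 3, and that of Hist1h2br 137, 163 and 190 bases.

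The annotated 3′ ends sorted the replication-dependent genes into 4 kinds. In 28 genes the transcript stopped within 200 bases of the loop, at a median of 36 bases past it, and in 18 it ran on for a median of 996.5 bases. The longest of the former ended 185 bases past the loop and the shortest of the latter 330 bases past it. In 15 genes the model stopped at the end of the coding part, and in 6 a model that went past it had no match. Of these 6, Hist1h2af and Hist1h2ah went past it by only 1 and 2 bases, too few to hold the stem-loop. The genes ending near the loop held 55.2% ± 2.04 of the replication-dependent TPM, and 23 of 28 reached 1 TPM in every library (82.1%). The genes with longer transcripts held 18.7% ± 2.24 and those without a match 14.2% ± 2.48, most of it from Hist1h2bc. These shares depend on the correction for length. Without it, genes ending near the loop summed to 128, 167 and 136 CPM in replicates 1, 2 and 3. Those with longer transcripts summed to 253, 218 and 208 CPM, with library sizes scaled by TMM in edgeR, so the order was reversed. Since 62 of the 67 genes have a single annotated transcript, levels of short and long forms of the same gene were not separable, and reads of a short mRNA from a gene with a long model count toward that model.

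Most members lie in clusters. The Hist1 cluster on chromosome 13 (mm10, 21715763 to 23934851) holds 54 members in 2 blocks of 23 and 31 genes, and gave 69.2% ± 1.33 of the replication-dependent TPM. The Hist2 cluster on chromosome 3 (96219865 to 96270132) holds 10 genes and gave 27.5% ± 1.53. Median levels were 4.06 and 3.19 TPM in the blocks of Hist1 and 5.38 TPM in Hist2, and the highest Hist2 gene was Hist2h2aa2. Within each block genes of high and low level lay side by side, and Hist1h2aa and Hist1h2ba, both without counts, are neighbours at the end of the second block.

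**Figure D3:**
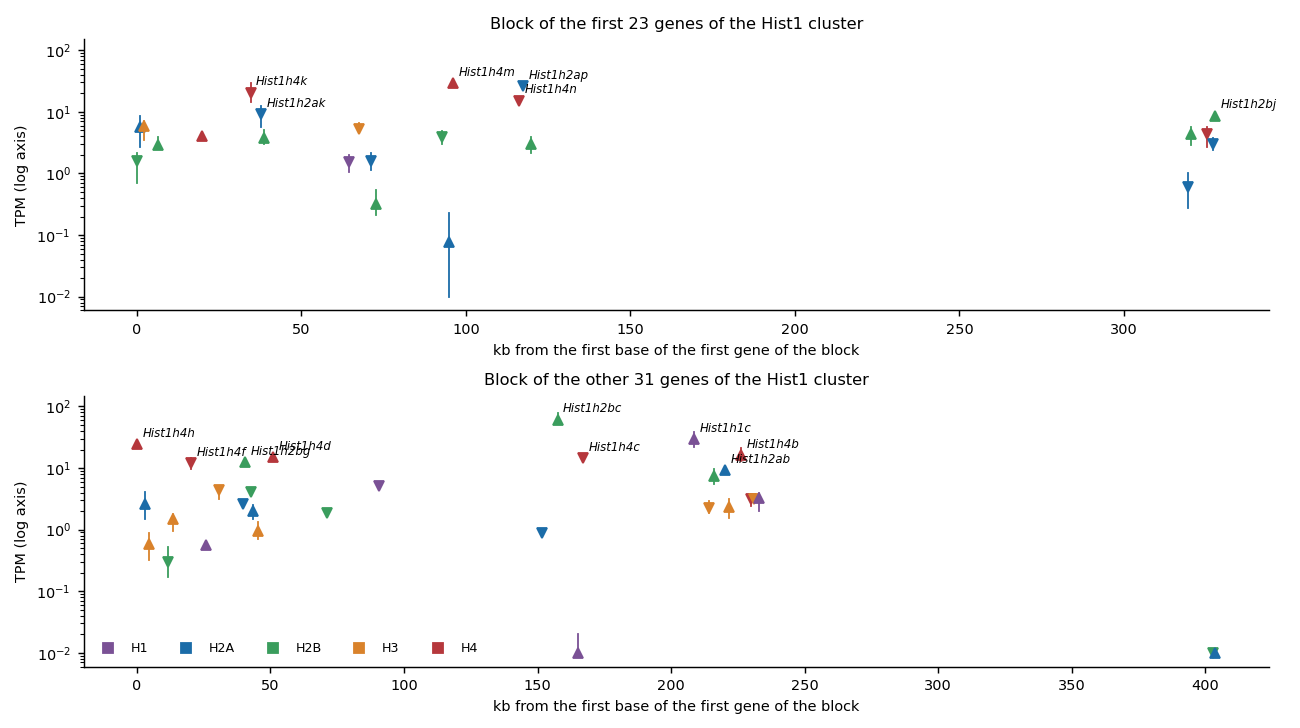
TPM of the 54 Hist1 genes (log axis) against distance in kb from the first base of each block. Triangles give the mean, pointing up for genes on the plus strand and down for the minus strand, lines span the 3 libraries, values under 0.01 are drawn at 0.01, and genes with a mean of 8 TPM or more are named; high and low genes alternate over short distances.

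Neighbours that start back to back from shared upstream DNA were not at equal TPM. There were 13 such divergent pairs with starts under 1000 bases apart, 12 of them an H2A with an H2B gene, and in the 12 pairs with counts the mean TPM of the higher gene was between 2.06 and 68.4 times that of the lower. The median was 4.97-fold, and 3.86-fold over the 6 pairs with both genes at 1 TPM or more, and the same gene was higher in TPM in every library in all 12. TPM divides by length, and in counts the order was not always kept. Hist2h2be, a model of 2620 bases, had 298, 355 and 350 counts in replicates 1, 2 and 3. Its partner Hist2h2ac, of 520 bases, had 164, 454 and 408 counts. By mean TPM 5 pairs differed by over 5-fold and none lay within 2-fold, but Hist1h2ak with Hist1h2bn, at 1.76, 1.87 and 4.16-fold in replicates 1, 2 and 3, and Hist1h2bf with Hist1h2ad, at 1.96, 1.82 and 2.62-fold, did in replicates 1 and 2, and did by their means without replicate 3. The largest gap was between Hist1h2bc, at a mean of 61.1 TPM, and Hist1h2ac, at 0.84, 0.86 and 0.98 TPM, whose starts are 251 bases apart. Hist1h2bc, a model of 1156 bases, had 3452, 4801 and 3385 counts, and Hist1h2ac, of 2482 bases, 90.0, 186 and 157 counts. The gap in counts was thus smaller than in TPM. Neither family was always the higher, since the H2B gene led in 6 of the 11 H2A and H2B pairs with counts. In Hist1h2ap with Hist1h2br the H2A gene was 8.81 times the higher, and the copies Hist1h2bq with Hist1h2ao showed the opposite order, with Hist1h2ao at a mean of 0.0767 TPM. Those pairs share coding sequences with each other, so their order is uncertain.

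**Figure D4:**
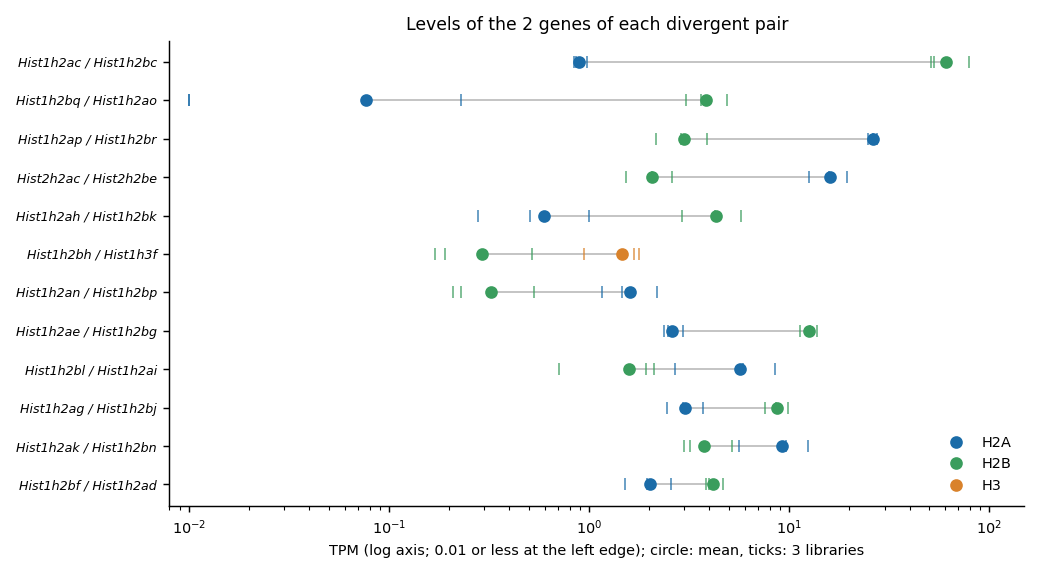
TPM (log axis) of the genes of the 12 divergent pairs with counts, coloured by family, with a circle for the mean, ticks for the 3 libraries and a line joining the pair. The gap is widest for Hist1h2ac and Hist1h2bc, and the side on which the H2B gene lies varies from pair to pair.

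Promoter sequence from RefSeq (GRCm38.p6, 250 bases before to 50 after a gene's start) was matched for 74 of 82 members. The CCAAT box (either strand) was present in every matched promoter of the replication-dependent H1, H2A, H2B and H3 genes, 5, 18, 16 and 10 in number, in 3 of 12 H4 promoters (25.0%) and in 9 of 13 variants (69.2%), against 37.4% of all 32851 RefSeq promoters. The octamer ATTTGCAT, a site of OCT1, was found in 6 of 16 H2B and 7 of 18 H2A promoters (37.5 and 38.9%) and in no other member, against 1.74% of all. TATAAA was in 34 of 61 replication-dependent promoters (55.7%) and in none of 13 variants, against 13.6% of all. None of the 3 motifs contains another, and a match describes letters only. Divergent pairs share this DNA, so a site can count for both genes and their promoters are not independent. The same octamer was counted in Hist1h2aa and Hist1h2ba, in Hist1h2ae and Hist1h2bg, and in Hist1h2ah and Hist1h2bk. The promoters below contrast the DNA between the most unequal divergent pair with that of the highest H4 gene; capitals mark CCAAT, ATTTGCAT and TATAAA on either strand.
Hist1h2ac (chr13:23683910-23684209, minus strand): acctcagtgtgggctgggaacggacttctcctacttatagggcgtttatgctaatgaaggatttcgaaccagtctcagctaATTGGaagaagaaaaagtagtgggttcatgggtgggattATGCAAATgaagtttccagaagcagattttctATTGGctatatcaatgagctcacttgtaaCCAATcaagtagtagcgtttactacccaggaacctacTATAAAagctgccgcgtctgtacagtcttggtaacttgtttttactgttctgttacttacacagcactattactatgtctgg
Hist1h4m (chr13:21811496-21811795, plus strand): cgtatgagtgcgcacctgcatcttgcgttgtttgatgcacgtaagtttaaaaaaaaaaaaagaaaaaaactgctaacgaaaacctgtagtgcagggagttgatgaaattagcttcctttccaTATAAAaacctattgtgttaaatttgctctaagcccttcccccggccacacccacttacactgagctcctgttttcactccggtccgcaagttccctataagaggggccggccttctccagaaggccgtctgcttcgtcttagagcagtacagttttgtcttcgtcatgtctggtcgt
The first holds all 3 motifs and lies between genes 68.4-fold apart in TPM. The second holds TATAAA and neither of the others.

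The members that differed between the libraries were replication-dependent. A gene was said to differ where a chi-square test of its counts against library sizes scaled by TMM (edgeR's trimmed mean of M-values) had a Benjamini-Hochberg adjusted p of 0.05 or less and its highest library was at least 2 times its lowest. This compares libraries, not conditions, and covers counting error only. Of 70 members with a mean of 10 counts or more, 22 differed, against 16.2% of all 13636 genes tested and 8.12% of protein-coding genes tested. All 22 were among the 61 replication-dependent genes tested. None of the 9 variants was called, although 7 had an adjusted p of 0.05 or less by this chi-square test and fell short of the 2-fold ratio. With DESeq2 size factors 1 variant was called, H2afy2, whose ratio went from 1.98 to 2.00. The contrast between the classes was not itself tested. Of the 70, 15 differed and were lowest in replicate 1, against 5.52% of all genes tested, and 19 differed and were highest in replicate 2, against 2.60%.

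By family, 7 of 12 H3 genes, 7 of 16 H2B genes, 5 of 15 H2A genes, 2 of 5 H1 genes and 1 of 13 H4 genes differed. The count rested on replicates 1 and 2. With replicates 1 and 2 alone 16 of 70 members differed (4.83% of all genes tested), with replicates 2 and 3 alone 9 of 70 (14.4%), and with replicates 1 and 3 alone 4 of 69 (13.9%). Without replicate 2 or without replicate 1 the count thus fell by more than 1.5 times. Its share of the members then lay below that of all genes tested. At a ratio of 1.5 there were 44 of 70 (27.2% of all genes tested), and at a ratio of 3 there were 6 of 70, below the 10.7% of all genes tested. All genes include non-coding ones, and the shares of protein-coding genes alone were not computed for these settings. Over the 3 libraries, 1545 of the 2203 genes that differed were highest in replicate 3, against 434 of 937 protein-coding genes.

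Apart from Hist1h2ai, at a mean of 5.72 TPM, the genes with the 6 largest ratios lay below the members' median of 3.55 TPM. Of the 6, 5 have uncertain assignment by the quartile measure. Hist2h3c1 measured 5.51, 5.04 and 0.532 TMM-scaled CPM in replicates 1, 2 and 3, a 10.2-fold ratio with an adjusted p of 6.17e-42 by the chi-square test, but its TPM made directly from the reads averaged 0.0949, so this gene is uncertain. Hist1h2bh, whose quartile variation stayed under 0.2, was at 0.465, 1.40 and 0.348 CPM, highest in replicate 2, with a ratio of 3.94. Hist1h2af, at 0.394, 1.36 and 0.594 CPM, and Hist1h2bl, at 0.179, 0.625 and 0.450 CPM, had ratios of 3.34 and 3.22 and were also highest in replicate 2. Hist1h3g, at 0.143, 0.493 and 0.225 CPM, and Hist1h2ai, at 0.680, 1.88 and 2.11 CPM, had ratios of 3.12 and 3.03. Among better counted genes, Hist2h3b had 92.4, 442 and 275 counts and a ratio of 2.53, with an adjusted p of 1.61e-17 by the same test.

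The shift was broad and went mostly 1 way. In TMM-scaled CPM, 49 of 61 replication-dependent genes were lower in replicate 1 than in replicate 2, against 53.6% of protein-coding genes tested, with a median log2 ratio of -0.55 against -0.02. In replicate 3 against replicate 2, 51 of 61 were lower, with a median log2 ratio of -0.39 against -0.08. By family the median log2 ratio of replicate 1 over replicate 2 was -0.93 for H3, -0.61 for H2B, -0.45 for H4, -0.40 for H2A and -0.05 for H1, and for the 9 variants it was 0.15. The abundant Hist1h2bc and Hist1h1c went the other way, with folds of replicate 1 over replicate 2 of 1.36 and 1.62. The summed CPM of replication-dependent genes was 534, 520 and 450 in replicates 1, 2 and 3, so the sum was not lower in replicate 1 than in replicate 2 but was lower in replicate 3.

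The shift between replicates 1 and 2 moved with annotated length and annotated end, which cannot be told apart here because the genes ending near the loop are the short ones. Length here is that of the annotated model, and the length of the mRNAs themselves was not measured. Libraries differ in effective length: that of Hist1h2ap, a transcript of 482 bases, was 235, 261 and 256 bases in replicates 1, 2 and 3, and the labels give a library size range of 250 to 400 without a unit. For the 45 replication-dependent genes under 1000 bases, the median log2 CPM ratio of replicate 1 over replicate 2 was -0.62 and 40 were lower in replicate 1, against a median of -0.11 and 66.1% lower among the 945 other protein-coding genes under 1000 bases. On the TPM scale, which uses each library's effective lengths, the same medians were -0.39 and 0.03, with 39 of 45 lower against 44.7%. For the 16 genes of 1000 bases or more, the median log2 CPM ratio was -0.04 and 9 were lower, against -0.01 and 52.3% of other genes. By end, the median log2 CPM ratio was -0.54 for genes ending near the loop (22 of 25 lower in replicate 1), -1.0 for models of the coding part alone and -0.10 for transcripts running past the loop.

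The difference between replicates 3 and 2 was present at both lengths. Under 1000 bases the median log2 CPM ratio was -0.49 for replication-dependent genes and -0.28 for the other protein-coding genes, and the TPM values were -0.14 and 0.04. From 1000 bases on, the CPM values were -0.28 and -0.06 and the TPM values 0.06 and 0.29. On the TPM scale 31 of all 61 replication-dependent genes tested were lower in replicate 3 than in replicate 2, in place of 51 on the CPM scale. The TPM scale moved other genes as well: the median log2 TPM ratio was -0.055 for the replication-dependent genes and 0.27 for all protein-coding genes tested, where the CPM values were -0.39 and -0.08.

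**Figure D5:**
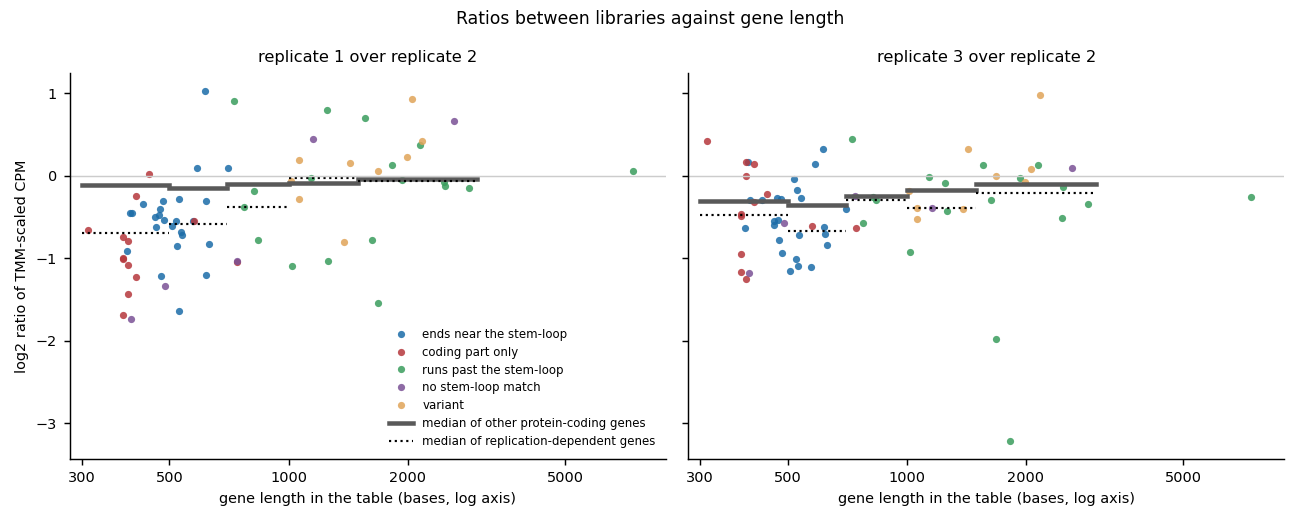
Log2 ratio of TMM-scaled CPM of each tested histone gene against its annotated length in bases (log axis), for replicate 1 over 2 (left) and replicate 3 over 2 (right), coloured by annotated end. Grey bars give the median of the other protein-coding genes in 5 length ranges and dotted lines that of the replication-dependent genes, which lies at -0.70 against -0.11 under 500 bases on the left and lies near the grey bars there above 1000 bases. On the right the dotted lines lie below the grey bars in all 5 ranges.

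Genes of dividing cells were set beside this shift. Of 18 cycling-cell genes, 12 were at 1 TPM or more in every library, and 17 were lower in replicate 1 than in replicate 2, with a median log2 CPM ratio of -0.31. In replicate 3 against replicate 2 their median was 0.01, unlike the -0.39 of the replication-dependent genes. By the test above 2 of the 18 differed, against 16.2% of all genes: the mitotic and S-phase cyclins Ccnb1 and Ccna2. Ccna2 measured 0.20, 0.50 and 0.42 TPM and Ccnb1 0.48, 1.06 and 0.73 TPM, both lowest in replicate 1. Pcna, the sliding clamp of DNA polymerase, was the highest of the list at 63.8, 62.2 and 67.1 TPM, and Mcm6 and Mcm3, helicase subunits, followed with means of 12.5 and 8.71 TPM. The neutrophil and granulocyte precursor markers also summed lowest in replicate 1, at 5.36, 9.31 and 10.5 TPM, with S100a9, S100a8 and Ngp highest at means of 4.54, 2.96 and 0.507 TPM, while Elane and Mpo were at 0.03 TPM or less and 0.07 TPM or less. The part of dividing cells and of granulocyte precursors in the shift was not tested, and in bulk RNA fewer such cells and less RNA per cell cannot be told apart.

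The genes that make, process and use histone mRNA were present, and none differed as defined above, with TMM or with DESeq2 size factors. With TMM, 16.2% of all genes tested and 8.12% of protein-coding genes tested differed. Most of the listed genes did pass the adjusted p of the chi-square test and fell short of the 2-fold ratio. For transcription and 3′ end processing of histone mRNA, 18 of 20 genes were at 1 TPM or more in every library and 0 of 20 differed. By the chi-square test 19 had an unadjusted p under 0.05 and 18 an adjusted p of 0.05 or less. Slbp, the stem-loop binding protein, was at 8.09, 7.53 and 8.53 TPM, and the highest of the list were Snrpb, a core protein of small nuclear ribonucleoproteins, Sympk, a scaffold of the cleavage complex, and Nelfe, a subunit of the negative elongation factor, at means of 27.7, 25.4 and 18.3 TPM. For translation and decay, 16 of 16 reached 1 TPM and 0 differed (15 at an adjusted p of 0.05 or less by the same test). This list was led by Tut7, a uridylyl transferase, at 35.8 ± 7.83 TPM, then Lsm7 and Lsm4, of the Lsm ring, at 17.9 and 17.2 TPM (means, n = 3).

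Of the histone chaperones 22 of 24 reached 1 TPM and 0 differed (22 at an adjusted p of 0.05 or less by the chi-square test). Npm1 and Set, which bind core histones, were at means of 67.7 and 61.0 TPM. Daxx, the H3.3 chaperone that works with Atrx, was next at 69.7, 41.0 and 56.4 TPM, highest in replicate 1. Of the H2A.Z exchange complexes 11 of 11 reached 1 TPM and 0 differed (7 at an adjusted p of 0.05 or less by the same test). The highest were Znhit1, Ep400 and Vps72 at means of 45.6, 15.9 and 14.7 TPM. Cenpa, the centromeric H3, was at 0.75, 0.88 and 1.12 TPM, and the spermatid gene Hils1 had no counts. Across these 4 lists the median log2 CPM ratio of replicate 1 over replicate 2 lay between -0.08 and 0.18.

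Among the variants, only H2afy, H3f3a and H2afz have transcripts annotated as retaining an intron. In these genes such transcripts were a minor part of the TPM and were highest in replicate 3. For H2afy they made up 0.0279, 0.299 and 8.69% of the gene's TPM in replicates 1, 2 and 3, for H3f3a 0.268, 0.220 and 1.48%, and for H2afz 0.102, 0.160 and 1.03%. Replicate 3 is also the library with the most nuclear RNA. In H2afy the share of the leading protein-coding transcript was 56.0, 49.2 and 40.7%.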

How the data were processed

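Each library has a gene table, a transcript table and a transcript table made directly from reads. Per the deposited notes that accompany the files, reads were aligned to mm10 with GENCODE M21 annotation. Software for alignment and quantification is not stated in those notes. The gene and transcript tables hold the authors' expected counts, deposited unnormalised, and the authors' TPM and posterior mean TPM, together with a coefficient of quartile variation, a score deposited by the authors. Rows naming no gene (26345 per table, 0.165 to 0.418% of counts) were left out.

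Expected counts were rounded to whole numbers. Library sizes were scaled with TMM in edgeR 4.0.16, and DESeq2 1.42.0 size factors were an alternative. Genes with a mean of 10 or more counts were tested by chi-square, with 0.5 counts added for ratios, in Python 3.11.15 with scipy 1.17.1. On simulated counts for 13636 genes, the test called 100% of genes changed 4-fold, 2.00% of those changed 1.5-fold and 3 unchanged genes. The simulation held counting error alone (Poisson), so it gives no error rate where libraries also vary for other reasons. The required ratio of 2 by itself leaves most 1.5-fold changes uncalled. Because the group holds 3 libraries and nothing sets them against another group, no test between conditions was made, and each p-value reflects only differences among the 3 libraries, some of which can be technical.

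Members and gene lists were chosen with earlier results of these data known. Named are the 4 highest replication-dependent genes per family, variants at 1 TPM or more, the 6 largest ratios, members at 0 counts, the 3 highest genes of the lists on histone mRNA, chaperones and exchange complexes, Slbp and Cenpa. Other genes were named after their values were seen. The 200-base limit for transcript ends was also set after seeing the data, and the planned share of TPM on transcripts ending at the stem-loop could not be computed, because 62 of 67 genes have 1 annotated transcript.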

Additional observations from a re-analysis of the deposited data

Results flagged for a closer look

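Rows with histone gene symbols that are not protein-coding genes, and so lie outside the 82, also carried signal. The processed pseudogene H3f3a-ps2 had a mean of 2.40 TPM, and Hist3h2bb-ps 1.16 TPM. The processed pseudogene H3f3c was at 0.653 TPM and the antisense gene H3f3aos at 0.0867 TPM. How reads divide between H3f3a and these copies was not tested.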

How the results depend on the processing

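The counts of members at 1 TPM in every library stayed within 1.5 times under most alternatives. At 5 TPM they fell to 29 members and 22 replication-dependent genes, and with TPM made directly from the reads to 32 replication-dependent genes. The shares of all protein-coding genes at these settings were not computed. With CPM per kb of full length 2 of the 4 shares moved by more than their SD, the replication-dependent share to 43.5% and the variant share of H2A to 39.8%. As shares of expected counts all 4 moved: these were 31.4 and 54.0%, the variant share of H3 was 96.6% and the H1f share of H1 44.8%. The number of members that differ between libraries was 44 at a ratio of 1.5 and 6 at a ratio of 3, where 27.2 and 10.7% of all genes differed, and leaving out a library gave 4 to 16, where 13.9 and 4.83% did. With DESeq2 size factors it was 21, including the variant H2afy2. Scaling the libraries to short protein-coding genes gave 15 of 70 (17.6% of all genes), and leaving out members of uncertain assignment gave 16 of 61 (16.2%), both chosen after seeing the data. The median log2 ratio of replicate 3 over replicate 2 moved from -0.39 to -0.055 on the TPM scale, also chosen after seeing the data, and that of protein-coding genes from -0.08 to 0.27, while that of replicate 1 over replicate 2 ranged from -0.59 to -0.33 over its alternatives. The cause of these moves was not tested beyond what each alternative changes. Limits of 100 and 500 bases past the stem-loop gave 23 and 34 genes in place of 28. TPM made directly from the reads was lower for all 34 named members, by over 1.5 times for 33. No paired analysis was possible because the series holds 1 group. Depth limits the statements on the lowest genes, since replicate 1 had the fewest counts.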
